A study of Mus musculus with 8 samples.

Results

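The genes of the nuclear pore and of nuclear transport were examined in mouse embryonic stem cells (ESCs) treated with a MYC inhibitor. They comprise the nucleoporin genes with a symbol of Nup and a digit, the Kpna and Kpnb importins, the Ipo and Xpo receptors with a digit, Tnpo1, Tnpo2, Tnpo3 and Cse1l, and the Ran system genes Ran, Ranbp1, Rangap1 and Rcc1. Of 18193 genes with a probe set of 1 gene symbol on the arrays, 46 met this rule, and each is represented by its probe set with the highest mean over all 8 arrays. RNA was hybridised to Affymetrix GeneChip arrays, 1 array per sample, and the deposited values are log2 expression levels.

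The 2 arrays called MYCi come from ESCs treated for 60 h with 64 μM 10058-F4, a small molecule that blocks dimers of MYC and MAX. The 3 arrays called released come from cells given the same 60 h of inhibitor and then cultured for 48 h without it in 2i medium, and the 3 DMSO arrays from cells given the solvent for 60 h. The medium of all 3 groups was N2B27 on gelatine, free of feeders and serum, with leukaemia inhibitory factor and the kinase inhibitors PD0325901 (against MEK) and CHIR99021 (against GSK3). The labels name neither the ESC line nor whether replicates were grown separately, and p-values therefore rest on a spread between arrays that may be technical. The DMSO and MYCi cells were taken at 60 h and the released cells 48 h later. Release and 48 h of further culture therefore cannot be told apart when released arrays are compared with DMSO or with MYCi arrays. The comparisons ask which transport genes changed with the inhibitor, which differed between released and MYCi cells, and how released cells compared with DMSO cells.

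The nuclear pore is a ring-shaped assembly that spans the nuclear envelope. Its scaffold of outer and inner rings carries nucleoporins with phenylalanine-glycine (FG) repeats that line the channel. Importins and exportins carry proteins and RNA through it, and the small GTPase Ran gives the direction: its exchange factor RCC1 sits on chromatin and loads Ran with GTP in the nucleus, while RANGAP1 and RANBP1 promote GTP hydrolysis outside. Importin α reads the classical nuclear localisation signal and importin β (Kpnb1) carries the pair inward. Several of these proteins, Ran, RCC1 and importin β among them, also act in spindle assembly and in rebuilding the nucleus after division.

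With regard to the series as a whole, Pearson correlations across genes between arrays of 1 group lay between 0.9977 and 0.9982, and array medians between 4.54 and 4.59. The 10 ESC markers examined had mean log2 levels of 11.25 to 11.27 on released arrays, 11.16 on both MYCi arrays and 11.23 to 11.25 on DMSO arrays, while 4 of them were called higher and 3 lower in MYCi than in DMSO arrays, with log2 changes from -1.79 to 0.69. Of the other marker lists, that of trophectoderm averaged 5.25 to 5.39 on released, 6.5 to 6.61 on MYCi and 5.25 to 5.35 on DMSO arrays, and 5 of its 10 genes were called higher in MYCi than in DMSO arrays, with Gata3 at the level of bacterial Trpn controls (2.15 to 2.95). The similar means on released and DMSO arrays hide single genes. Between these arrays 1 of the 10 trophectoderm genes was called higher and 2 lower, with log2 changes from -1.21 to 1.59. In MYCi against DMSO arrays no gene of the fibroblast, endoderm, mesoderm and neural lists was called higher, whereas 1 of 10 fibroblast, 3 of 10 endoderm, 2 of 6 mesoderm and 3 of 7 neural genes were called lower, with a log2 change down to -2.13 for a neural gene. Of these lists, 3 neural and 1 mesoderm gene were called lower between released and DMSO arrays. The means of these lists lay between 3.52 and 4.94 on all arrays. The 3 fibroblast genes Col3a1, Postn and Lum and the neural gene Zic1 were at the level of the Trpn controls. The 3′ minus 5′ difference of the Gapdh control was -0.148 and -0.216 on MYCi arrays and -0.133 to -0.108 on the other 6. The part of these values in the results below was not tested. Fewer cells of a type and less RNA per cell cannot be told apart in bulk RNA, and values scaled between arrays do not show a change shared by most genes.

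After 60 h of inhibitor, 25 of the 46 genes were lower than in DMSO and 2 were higher at a limma adjusted p under 0.05, while 19 did not pass. Of all genes tested, 41.5% were called in either direction. Thus 54.3% of the 46 genes were called lower, against 22.3% of all 18193 genes, and 4.35% were called higher, against 19.2% of all genes. The median log2 change was -0.26 over the 46 genes and -0.06 over all genes tested. The changes were moderate: all 46 were below 2-fold, the largest being a 1.91-fold fall of Rcc1. Values of both MYCi arrays lay below all DMSO arrays for 34 of the 46 genes and above them for 5, against 35% and 25.5% of all genes. Counted array by array, 35 and 36 of the 46 genes lay below all 3 DMSO arrays on MYCi replicates 1 and 2. The matching shares of all genes on single arrays were not counted, so these 2 counts have no background to be read against. Of the 25 calls, 20 held when each of the 8 arrays was left out in turn, and the count of genes called lower stayed between 22 and 26.

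After withdrawal most of these genes stood higher than in MYCi and near their DMSO levels. Between released and MYCi arrays 29 of the 46 genes were called higher and 4 lower, against 22.7% and 19.2% of all genes (41.9% in either direction), with a median log2 change of 0.25 (0.06 over all genes). Between released and DMSO arrays 3 were called higher and 1 lower, against 4.66% and 4.01% of all genes (8.66% in either direction), with a median of 0.03 (0.00 over all genes). All 3 released arrays lay above all DMSO arrays for 14 of the 46 genes, a larger share than the 14.6% of all genes. They lay below all DMSO arrays for 8 of the 46, a share nearer to the 14% of all genes. These comparisons share arrays, so their counts are not independent. Of the 29 calls between released and MYCi arrays, 21 held when each array was left out in turn, and the count ran from 22 to 29. Of the 25 genes called lower in MYCi, 22 were called higher in released than in MYCi arrays, which is 88%, against 77.9% of all 4060 genes called lower in MYCi. Likewise 22 (88%) were not called between released and DMSO arrays, against 87.4% of those 4060 genes and 91.3% of all genes tested, so that this share lies near the background. Both counts start from a call made on the same MYCi and DMSO arrays. For the 22 genes not called against DMSO, the 95% intervals of the released minus DMSO difference ran at most from -0.29 to 0.32 (log2). The heat map of all genes on all arrays shows both steps.

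**Figure D1:**
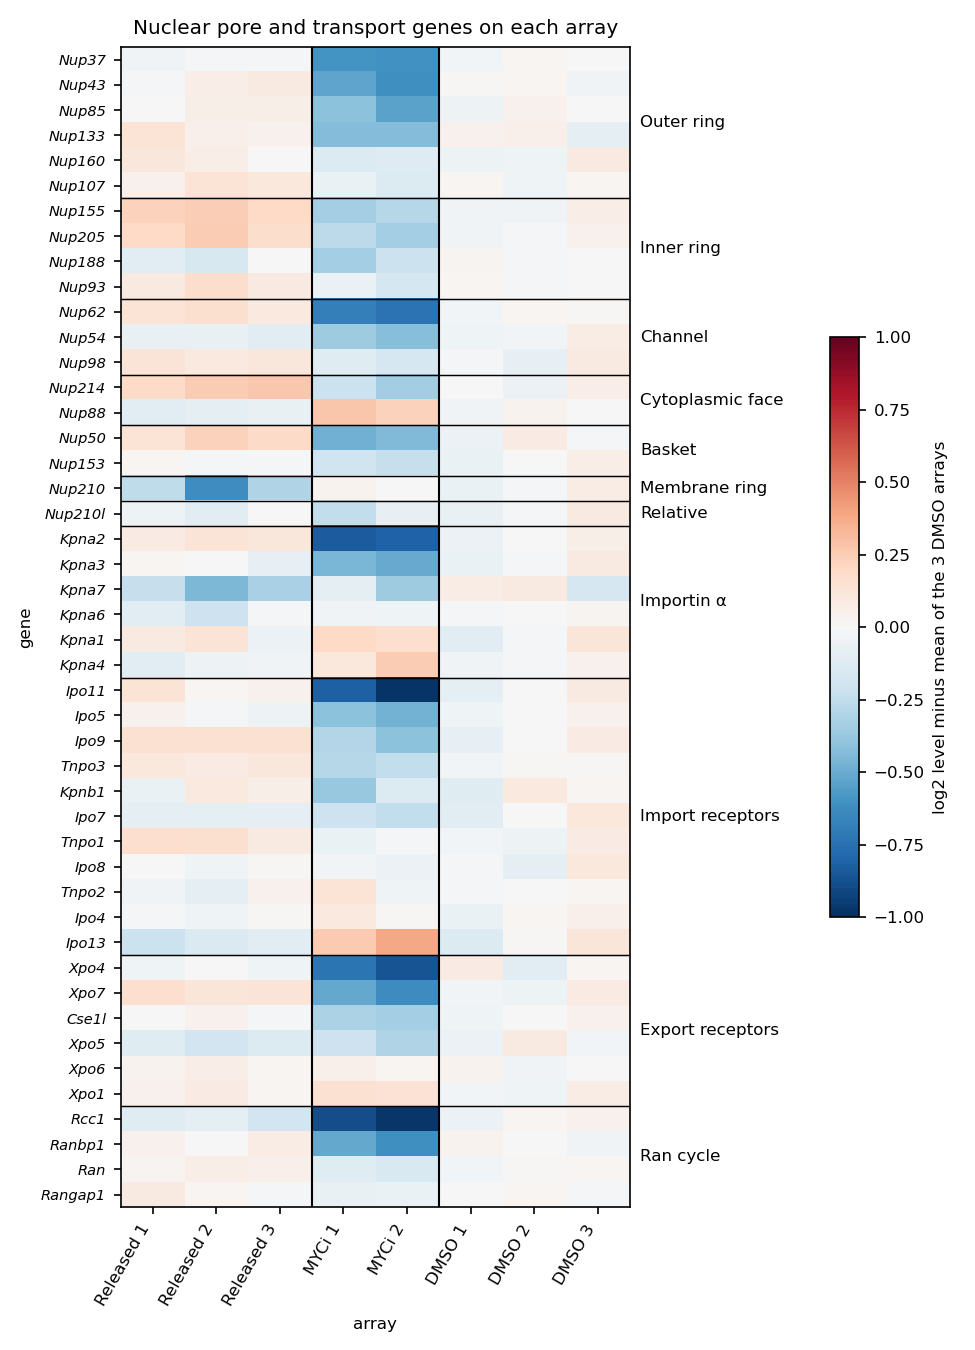
Each cell is the log2 level of 1 gene (row) on 1 array (column) minus the mean of the 3 DMSO arrays for that gene, blue for lower and red for higher, with genes grouped by role. The 2 MYCi columns are blue for most rows, darkest for Rcc1, Ipo11, Kpna2 and Xpo4, while the released columns are pale for most rows, blue for Nup210 and Kpna7 and light red for Nup155, Nup205 and Nup214.

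MYC and MAX bind the E-box CACGTG, a palindrome that reads the same on both strands. Promoters of RefSeq, assembly GRCm38.p6, covering 250 bases before to 50 bases after the gene start, were matched by symbol for 37 of the 46 genes. Of these 37 genes, 7 (18.9%) hold the E-box in at least 1 promoter, against 8.09% of all 27025 genes with a promoter, and 7.15% of all 32851 promoters hold it. It is found in 3 of the 19 genes called lower in MYCi (15.8%), in 4 of the 16 not called (25%) and in 0 of the 2 called higher. A match is a description of the letters in this window and not a binding site. The promoters of Rcc1 and Kpna2, among the largest falls, hold no match, whereas that of Ran, whose level did not pass the test in MYCi against DMSO, holds 1. They are shown 5′ to 3′ on the gene's strand, with the E-box in capitals.
Rcc1 (chr4:132345701-132346000, minus strand): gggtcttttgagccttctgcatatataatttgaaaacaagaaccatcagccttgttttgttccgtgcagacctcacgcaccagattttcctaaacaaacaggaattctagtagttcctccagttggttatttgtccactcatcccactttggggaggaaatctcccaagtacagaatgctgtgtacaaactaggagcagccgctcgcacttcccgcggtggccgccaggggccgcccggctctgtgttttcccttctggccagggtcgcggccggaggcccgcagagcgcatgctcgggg
Kpna2 (chr11:106999476-106999775, minus strand): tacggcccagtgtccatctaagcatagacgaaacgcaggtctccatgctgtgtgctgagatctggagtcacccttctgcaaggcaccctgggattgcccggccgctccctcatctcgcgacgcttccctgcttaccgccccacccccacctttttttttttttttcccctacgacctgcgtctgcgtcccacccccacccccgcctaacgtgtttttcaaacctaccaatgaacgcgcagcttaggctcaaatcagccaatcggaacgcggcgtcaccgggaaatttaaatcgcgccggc
Ran (chr5:129019906-129020205, plus strand): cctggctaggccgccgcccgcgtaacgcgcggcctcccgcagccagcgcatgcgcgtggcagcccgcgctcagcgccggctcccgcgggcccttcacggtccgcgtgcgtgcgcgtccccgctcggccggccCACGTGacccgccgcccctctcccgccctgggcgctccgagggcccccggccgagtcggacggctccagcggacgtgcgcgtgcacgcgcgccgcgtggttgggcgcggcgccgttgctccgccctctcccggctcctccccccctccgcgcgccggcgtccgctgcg

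The other 6 genes with an E-box are shown to compare its surroundings, with 20 bases to each side of the E-box in capitals. Nup188 and Tnpo2 have 2 matches each.
Ipo4 (chr14:55635645-55635690, minus strand): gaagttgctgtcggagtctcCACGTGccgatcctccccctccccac
Ipo7 (chr7:110018158-110018203, plus strand): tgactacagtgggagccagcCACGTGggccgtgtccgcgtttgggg
Nup188 (chr2:30286330-30286375, plus strand): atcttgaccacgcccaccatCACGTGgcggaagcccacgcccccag
Nup188 (chr2:30286372-30286417, plus strand): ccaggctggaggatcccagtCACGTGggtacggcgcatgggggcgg
Nup54 (chr5:92435274-92435319, minus strand): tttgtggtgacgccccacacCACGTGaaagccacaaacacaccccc
Nup93 (chr8:94214369-94214414, plus strand): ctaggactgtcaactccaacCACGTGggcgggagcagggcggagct
Tnpo2 (chr8:85036718-85036763, plus strand): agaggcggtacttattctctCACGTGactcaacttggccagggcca
Tnpo2 (chr8:85036757-85036802, plus strand): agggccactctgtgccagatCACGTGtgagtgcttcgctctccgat
The changes in MYCi against DMSO of these genes ran from a log2 change of -0.39 for Nup54 and -0.28 for Nup188, both called lower, to 0.05 for Tnpo2 and Ipo4, not called.

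Within the Ran cycle, the exchange factor gene Rcc1 fell and the GTPase itself changed little. Rcc1 measured 8.01 and 7.93 (log2) on MYCi arrays, against 8.84, 8.92 and 8.94 on DMSO arrays, and the groups did not overlap. Its log2 change was -0.93 ± 0.066 (moderated SE; limma adjusted p = 2.95e-06), the largest fall of the 46 genes. On released arrays it was 8.78, 8.80 and 8.71, below all DMSO arrays, a difference of -0.14 ± 0.059 that did not pass (limma adjusted p = 0.203). Ranbp1, the Ran-GTP binding partner of RANGAP1, measured 11.32 and 11.22 in MYCi against 11.87, 11.83 and 11.80 in DMSO, a 1.48-fold fall (-0.56 ± 0.064; limma adjusted p = 6.49e-05). In released cells Ranbp1 overlapped DMSO (11.88, 11.83 and 11.91).

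Ran measured 12.46 and 12.43 in MYCi and 12.55, 12.59 and 12.60 in DMSO. The arrays did not overlap, but the change of -0.14 ± 0.058 did not pass (limma adjusted p = 0.0914), with a 95% interval from -0.27 to -0.01. All 6 probe sets of Ran were not called, with changes between -0.18 and 0.06. They include 5 that can bind other transcripts by their design class, and the kept one is among these. Rangap1, the GTPase-activating protein, differed by -0.07 ± 0.062 (95% interval from -0.21 to 0.07) and was not called. Between released and MYCi arrays Rcc1 (0.79 ± 0.066), Ranbp1 (0.60 ± 0.064) and Ran (0.19 ± 0.058; limma adjusted p = 0.0245) were called higher. The call of Ran ended under 9 of 18 alternatives, among them without MYCi replicate 1 or 2 and without released replicate 2 or 3, with a limma adjusted p up to 0.116.

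Of the 6 importin α adaptors 2 (33.3%) were lower in MYCi, 0 were higher and 4 were not called. Of all genes, 22.3% were lower and 19.2% higher. Kpna2, the adaptor that carries OCT4 into the nucleus, measured 10.92 and 10.94 in MYCi, against 11.69, 11.75 and 11.81 in DMSO. This is a 1.76-fold fall (-0.82 ± 0.063; limma adjusted p = 4.87e-06). After release Kpna2 stood at 11.83, 11.88 and 11.86, above every DMSO array by a difference that was not called (0.11 ± 0.056; limma adjusted p = 0.301). Kpna3 fell 1.39-fold (-0.47 ± 0.069; limma adjusted p = 0.000342), with 8.92 and 8.87 in MYCi and 9.31, 9.35 and 9.46 in DMSO, and its released values of 9.39, 9.37 and 9.29 overlapped those of DMSO. Of its 3 probe sets all were called lower in MYCi.

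Kpna4, Kpna1, Kpna6 and Kpna7 did not pass the test in MYCi against DMSO. Kpna4 measured 10.11 and 10.26 in MYCi, above the 9.97, 9.99 and 10.05 of DMSO (0.18 ± 0.069; limma adjusted p = 0.0592), and passed without MYCi replicate 1 (0.037). Kpna1 measured 8.86 and 8.83 in MYCi, again above 8.55, 8.65 and 8.78 in DMSO (0.18 ± 0.086; limma adjusted p = 0.125). The sign of both depends on the probe set: 3 of the 5 probe sets of Kpna1 had negative changes (-0.26, -0.22 and -0.06), as had the second one of Kpna4 (-0.02), and none of the probe sets of either gene was called in MYCi against DMSO. Kpna6 differed by -0.03 ± 0.068. Kpna4 was lower in released than in MYCi arrays (-0.25 ± 0.069; limma adjusted p = 0.0149), a call that ended without MYCi replicate 2 (0.14) and that ranged from 0.000354 to 0.14 over the alternatives. Kpna7, an adaptor of oocytes and the early embryo, had the lowest level of the 46 genes, between 3.59 and 4.13 on all arrays, close to the bacterial controls. It was 3.81, 3.59 and 3.71 in released cells and 4.11, 4.13 and 3.87 in DMSO cells. The arrays did not overlap, and the difference (-0.34 ± 0.098) was not called (limma adjusted p = 0.067), although it passed without DMSO replicate 3 (0.0403).

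**Figure D2:**
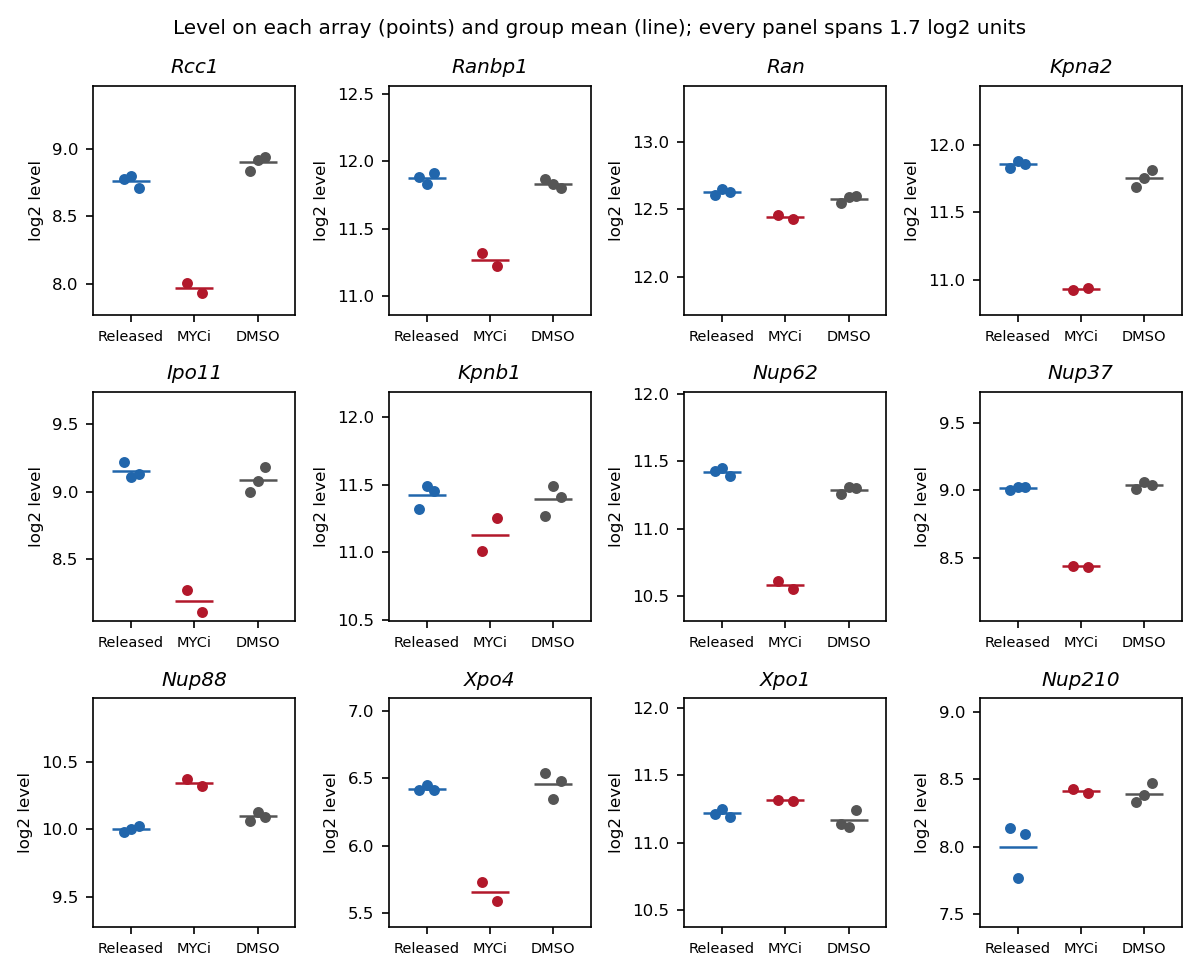
Points are log2 levels on single arrays and lines are group means for 12 genes, with released, MYCi and DMSO arrays from left to right in each panel. Rcc1, Ranbp1, Kpna2, Ipo11, Nup62, Nup37 and Xpo4 are lowest in MYCi. Ran and Kpnb1 are also lowest there, by smaller differences from DMSO (-0.14 and -0.26, not called). Nup88 and Xpo1 are highest in MYCi, and Nup210 is lowest in the released arrays.

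Among the 11 import receptors 5 (45.5%) were lower and 1 (9.09%) was higher in MYCi, against 22.3% and 19.2% of all genes. Ipo11, an importin of the β family that carries the ubiquitin-conjugating enzyme UBE2E3, fell most: it measured 8.27 and 8.11 in MYCi, against 9.0, 9.08 and 9.18 in DMSO. The fall was 1.86-fold (-0.895 ± 0.080; limma adjusted p = 1.34e-05), and both its probe sets were called lower. It regained 9.22, 9.11 and 9.13 in released cells, overlapping DMSO (0.07 ± 0.072), and was called higher than in MYCi by 0.96 ± 0.080 (limma adjusted p = 7.74e-06). Ipo5, which imports ribosomal proteins and histones, fell by 0.445 on the log2 scale and Ipo9, an importin of histones and actin, by 0.35. Tnpo3, the carrier of serine- and arginine-rich splicing factors, fell by 0.27 and Ipo7, a carrier of ribosomal proteins and histone H1, by 0.22. The call of Ipo7 (limma adjusted p = 0.0308) was lost without MYCi replicate 1 or 2 or DMSO replicate 2 or 3, with values up to 0.146.

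Kpnb1, importin β1 itself, gave a mixed picture. Its kept probe set measured 11.01 and 11.25 in MYCi and 11.27, 11.49 and 11.41 in DMSO, a change of -0.26 ± 0.095 that narrowly missed the threshold (limma adjusted p = 0.0525). The SD of its MYCi arrays was 0.17, against a median of 0.0445 over the 46 genes, and the call was gained without MYCi replicate 2 (0.0262) or DMSO replicate 1. With all probe sets tested, each of its 3 other probe sets was called lower, by -0.58 ± 0.069, -0.51 ± 0.071 and -0.26 ± 0.073. The probe set with the largest of these changes measured 9.71 and 9.68 in MYCi, against 10.23, 10.24 and 10.34 in DMSO. On the kept probe set released cells measured 11.32, 11.49 and 11.45, higher than MYCi by 0.29 ± 0.095 (limma adjusted p = 0.0339), a call that ended under 7 of 18 alternatives, without MYCi replicate 1 or released replicate 2 or 3 among them (up to 0.276).

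Ipo13, a receptor that works in both directions, rose. It measured 7.16 and 7.28 in MYCi, against 6.76, 6.91 and 7.02 in DMSO (0.32 ± 0.085; limma adjusted p = 0.0121). The call was lost without MYCi replicate 2 (limma adjusted p = 0.102; range over the alternatives 0.00244 to 0.102). In released cells Ipo13 was 6.68, 6.75 and 6.79, lower than in MYCi by 0.48 ± 0.085 (limma adjusted p = 0.0012). Tnpo1 (-0.04 ± 0.066), Tnpo2 (0.05 ± 0.074), Ipo4 (0.05 ± 0.066) and Ipo8 (-0.04 ± 0.070) were not called in MYCi against DMSO. The widest of their 95% intervals, that of Tnpo2, ran from -0.12 to 0.21. These values are those of the kept probe sets. With all probe sets tested, Tnpo1 also had probe sets called lower (-0.305 ± 0.095 and -0.295 ± 0.096), and so had Ipo8 at a dim one (-0.35 ± 0.096). No probe set of Tnpo2 or Ipo4 was called in MYCi against DMSO.

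Of the 6 export receptors 4 (66.7%, against 22.3% of all genes) were lower in MYCi, and the principal one, Xpo1, was not. Xpo4, which exports the translation factor eIF5A, measured 5.73 and 5.59 in MYCi against 6.54, 6.35 and 6.48 in DMSO, a 1.73-fold fall (-0.79 ± 0.075; limma adjusted p = 1.94e-05). Released cells measured 6.41, 6.45 and 6.41, overlapping DMSO. The other probe sets of Xpo4 had values of at most 4.84 and were not called in MYCi against DMSO, with changes of 0.06 and 0.02. With all probe sets tested, the brighter of them was called higher in released than in MYCi arrays (0.48 ± 0.15; limma adjusted p = 0.0272). On that probe set released arrays lay above all DMSO arrays by 0.50 ± 0.13, which was not called. Xpo7, a bidirectional receptor, measured 8.92 and 8.80 in MYCi and 9.40, 9.38 and 9.51 in DMSO (-0.57 ± 0.069; limma adjusted p = 9.9e-05). Its released values of 9.60, 9.55 and 9.56 lay above all DMSO arrays by 0.14 ± 0.061, which was not called (limma adjusted p = 0.212). Cse1l, which returns importin α to the cytoplasm, measured 10.50 and 10.48 in MYCi, against 10.78, 10.82 and 10.86 in DMSO (-0.33 ± 0.060; limma adjusted p = 0.0014). Cse1l was within the DMSO spread after release (10.82, 10.86 and 10.81).

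Xpo5, the carrier of microRNA precursors, fell by 0.26 on the log2 scale in MYCi (limma adjusted p = 0.0138) and lost its call without MYCi replicate 2 (0.106). It was among the 3 genes called lower in MYCi that were not called between released and MYCi arrays, with Ipo7 and Nup188. On the kept probe set its released values of 7.95, 7.88 and 7.93 remained below all of the 8.01, 8.16 and 8.04 of DMSO, a difference of -0.15 ± 0.062 that was not called. The second probe set of Xpo5, about as bright, went the other way after release: it measured 8.0, 8.04 and 7.99 in released cells, 7.52 and 7.45 in MYCi cells, and 7.80, 7.89 and 7.91 in DMSO cells. It was called higher in released than in MYCi arrays when all probe sets were tested (0.53 ± 0.069; limma adjusted p = 0.00017), so the course of Xpo5 after release depends on the probe set. Xpo6, the exportin of actin, differed by 0.04 ± 0.059 in MYCi and overlapped DMSO.

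Xpo1 encodes CRM1, the receptor for leucine-rich export signals. It measured 11.32 and 11.31 in MYCi, above 11.14, 11.12 and 11.24 in DMSO, and its change of 0.15 ± 0.064 did not pass (limma adjusted p = 0.0823; 95% interval from 0.01 to 0.30). Without DMSO replicate 3 it passed (0.0477). Released cells, at 11.21, 11.25 and 11.19, overlapped DMSO and lay below both MYCi arrays without a call. With all probe sets tested, another bright one, at 11.0 and 11.02 in MYCi and 10.73, 10.78 and 10.88 in DMSO, was called higher (0.21 ± 0.070), whereas a dim one, at 5.20 and 4.92 in MYCi and 5.49, 5.31 and 5.58 in DMSO, was called lower (-0.40 ± 0.11). The direction for Xpo1 therefore depends on the probe set.

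The outer ring, or Y complex, was lower in MYCi at 4 of its 6 measured genes (66.7%, against 22.3% of all genes). All 6 changes were negative. Nup37 measured 8.44 and 8.43 in MYCi, against 9.01, 9.06 and 9.04 in DMSO, a 1.52-fold fall (-0.60 ± 0.057; limma adjusted p = 1.97e-05). Nup43 measured 8.05 and 7.96 in MYCi, against 8.59, 8.60 and 8.54 in DMSO (-0.57 ± 0.065; limma adjusted p = 6.6e-05). In released cells Nup37 was 9.0, 9.02 and 9.02 and Nup43 was 8.56, 8.64 and 8.67, both overlapping DMSO. NUP37 and NUP43 are the peripheral β-propeller subunits of the complex and are absent from that of budding yeast. Nup85 fell by 0.47 and Nup133 by 0.43 on the log2 scale. The core subunit genes Nup160 (-0.14 ± 0.069) and Nup107 (-0.10 ± 0.064) lay below all DMSO arrays without a call. Between released and MYCi arrays all 6 were called higher, from 0.19 for Nup107 to 0.62 for Nup43, against 22.7% of all genes. However, Nup107 kept its call in 4 and Nup160 in 2 of the 8 refits that left out an array. Both lost it without MYCi replicate 1 or 2 and without released replicate 2 (limma adjusted p up to 0.187 and 0.152). With all probe sets tested, the kept probe sets of Nup107 and Nup160 were not called (limma adjusted p = 0.0504 and 0.0608).

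In the inner ring 3 of 4 genes (75%, against 22.3% of all genes) were lower in MYCi. Nup155 measured 8.58 and 8.64 in MYCi, against 8.89, 8.89 and 8.99 in DMSO (-0.31 ± 0.063; limma adjusted p = 0.0027). Nup205 measured 9.36 and 9.28 in MYCi, against 9.59, 9.61 and 9.67 in DMSO (-0.30 ± 0.063; limma adjusted p = 0.00358). Nup188, a paralogue of NUP205, fell by 0.28 on the log2 scale, a call lost without MYCi replicate 1 (limma adjusted p = 0.103), and Nup93, the hub of the ring, differed by -0.12 ± 0.065 and was not called.

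The inner ring genes Nup155 and Nup205 and the cytoplasmic filament gene Nup214 are the 3 genes that were higher in released than in DMSO cells. Nup155 reached 9.15, 9.17 and 9.12 in released cells, above all DMSO arrays (0.22 ± 0.057; limma adjusted p = 0.0401). Nup205 reached 9.82, 9.88 and 9.80 in released cells, also above all DMSO arrays (0.21 ± 0.057; limma adjusted p = 0.0498). Nup214 measured 8.41, 8.47 and 8.49 in released cells, against 8.21, 8.16 and 8.28 in DMSO cells (0.24 ± 0.062; limma adjusted p = 0.044). All 3 calls lie close to the threshold, and with all probe sets tested no probe set of these genes was called between released and DMSO arrays. None of the 3 held with each of the 8 arrays left out: Nup205 lost its call in all 8 refits (limma adjusted p from 0.0648 to 0.155), Nup155 in 7 of them and Nup214 in 6 (up to 0.119 and 0.1305). The count of genes called higher ran from 0 to 1 over these refits and was 0 with the mean of all probe sets, with arrays centred on their median and with the replicate number as a block.

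Among channel nucleoporins, Nup62, which forms the central FG trimer, fell 1.64-fold in MYCi. It measured 10.61 and 10.55 in MYCi, against 11.26, 11.31 and 11.30 in DMSO (-0.71 ± 0.060; limma adjusted p = 8.79e-06). All 5 of its probe sets were called lower, from -0.89 to -0.37. In released cells Nup62 was 11.43, 11.45 and 11.39, above all DMSO arrays by 0.14 ± 0.053, which was not called (limma adjusted p = 0.161). Nup54, its partner in the trimer, fell by 0.39 on the log2 scale, and all 5 of its probe sets were called lower. Nup98, a mobile FG nucleoporin with a role in RNA export, differed by -0.14 ± 0.067 and was not called.

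At the 2 faces of the pore the directions differed by gene. Nup88, the cytoplasmic partner of NUP214, was higher in MYCi, with 10.37 and 10.32 against 10.06, 10.13 and 10.09 in DMSO (0.25 ± 0.059; limma adjusted p = 0.00714). The call was lost without MYCi replicate 1 (0.0553; range over the alternatives 0.000103 to 0.0553). In released cells Nup88 stood at 9.98, 10.00 and 10.02, lower than in MYCi by 0.34 ± 0.059 and below all DMSO arrays without a call. Nup214, by contrast, measured 8.0 and 7.87 in MYCi, against 8.21, 8.16 and 8.28 in DMSO (-0.28 ± 0.070; limma adjusted p = 0.00877), a call lost without MYCi replicate 2 (0.0891). The difference between the changes of Nup88 and Nup214 was not tested.

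On the nuclear side, the basket gene Nup50, whose mobile product binds importin α and RCC1, fell in MYCi to 8.26 and 8.30, against 8.68, 8.82 and 8.72 in DMSO (-0.46 ± 0.067; limma adjusted p = 0.000374). In released cells it was 8.88, 8.97 and 8.93, above all DMSO arrays by 0.19 ± 0.060 without a call (limma adjusted p = 0.0929). Its other probe sets did not show this: one about as bright changed by -0.175 ± 0.085 in MYCi, not called, and by -0.06 in released against DMSO cells, and a dimmer one was called lower in MYCi (-0.38 ± 0.11) and differed by -0.25 in released against DMSO cells. With the mean of all probe sets the released minus MYCi change of Nup50 was 0.30, against 0.65 on the kept one. Nup153 fell by 0.22 on the log2 scale in MYCi (limma adjusted p = 0.0205), a call that ended without MYCi replicate 1 or 2 or DMSO replicate 3 (up to 0.104).

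The membrane ring gene Nup210, which encodes the transmembrane glycoprotein gp210, differed from the other genes in its course. It measured 8.43 and 8.40 in MYCi and 8.33, 8.38 and 8.47 in DMSO, a change of 0.02 ± 0.10 (95% interval from -0.21 to 0.25). In released cells it was 8.14, 7.77 and 8.09, below all MYCi and all DMSO arrays. The change was -0.40 ± 0.092 against DMSO (limma adjusted p = 0.0284) and -0.42 ± 0.10 against MYCi (limma adjusted p = 0.00876). It was called lower in released than in DMSO cells, alone among the 46 genes, but not without DMSO replicate 1, 2 or 3 (limma adjusted p up to 0.0894), and the released arrays differed more among themselves (SD 0.197) than for any other of the 46 genes. The call against MYCi ended without MYCi replicate 1 (0.0558) and with the mean of all probe sets (0.0748). Nup210l, a relative of Nup210 known from testis, lay between 5.45 and 5.78 on all arrays and was not called.

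**Figure D3:**
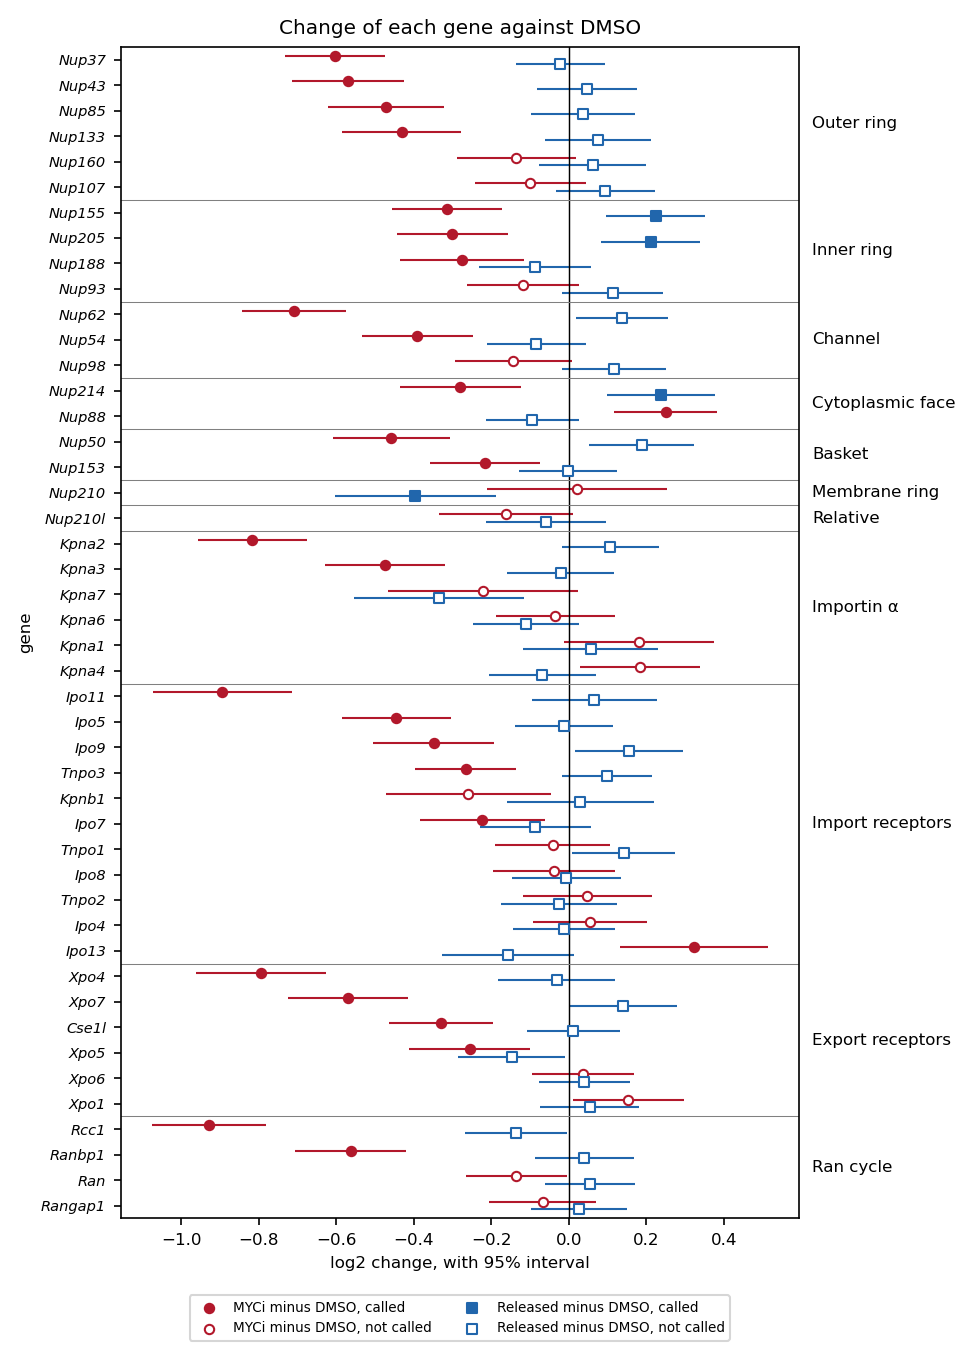
Points are log2 changes of each gene against DMSO for MYCi (circles) and released arrays (squares), with 95% intervals as lines, and filled symbols mark a limma adjusted p under 0.05. MYCi changes run from -0.93 to 0.32 and 25 filled circles lie left of zero, whereas squares lie between -0.40 and 0.24 with 4 filled.

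The 46 genes have 119 probe sets, 34 genes having more than 1. Of the 25 genes called lower in MYCi, 15 had every probe set called lower when all probe sets were tested, and 1, Xpo7, also had a probe set called higher. Of the 73 probe sets that were not kept, 20, in 13 genes, had a change in MYCi of opposite sign to the kept one, and 2 of these 20 were called, 1 each in Xpo7 and Xpo1. Of the 25 genes called lower, 6 had such a probe set (Ipo5, Ipo7, Nup153, Nup155, Xpo4 and Xpo7). That probe set of Xpo7 measured 3.24 and 3.27 in MYCi and 2.81, 2.90 and 3.09 in DMSO, near the bacterial controls, while 3 of its 8 probe sets, all brighter, were called lower, by up to -1.26. For Cse1l, Kpna2, Nup37, Ranbp1 and Rcc1 the count rests on a single probe set. Of the 19 genes without a call, 6 had another probe set called lower, among them Kpnb1, Tnpo1, Ipo8, Rangap1, Nup98 and Xpo1. The kept probe set belongs to a class that can bind other transcripts for 3 genes (Nup62, Kpnb1 and Ran) and to a class shared by several transcripts for 5, so levels of these may hold signal of related sequences.

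**Figure D4:**
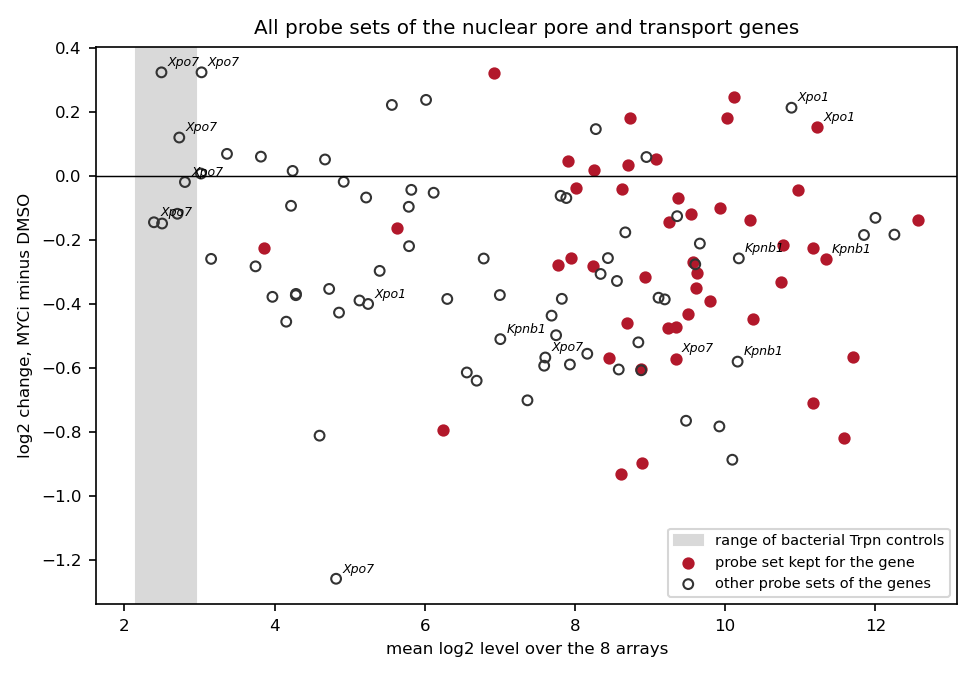
Each point is 1 of the 119 probe sets, with its mean log2 level over the 8 arrays on the x axis and its log2 change of MYCi minus DMSO on the y axis. Filled points are the probe sets kept for the genes, the grey band spans the bacterial controls (2.15 to 2.95), and the named points show the spread within Xpo1, Xpo7 and Kpnb1.

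The other genes of the pathway were taken as 3 lists outside the rule. Of 27 measured further pore and transport genes, 10 (37%) were lower and 6 (22.2%) higher in MYCi than in DMSO. Of all genes, 22.3% were lower and 19.2% higher. The median log2 change of these 27 genes was -0.06 (-0.06 over all genes). Of 14 mRNA export genes of the TREX and TREX-2 complexes and the cap-binding complex, 9 (64.3%) were lower and 0 higher (median -0.29). Of 13 lamina and envelope genes, 6 (46.2%) were lower and 1 (7.69%) was higher (median -0.21).

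In the first list the largest fall was that of Rangrf, the Ran-binding factor known as MOG1 in yeast, by -1.23 ± 0.071 in MYCi (limma adjusted p = 8.25e-07). It was also lower in released than in DMSO cells (-0.32 ± 0.063; limma adjusted p = 0.0139). Nxt1, the partner of the mRNA export receptor NXF1, fell (-0.56 ± 0.075), and Nxf1 itself differed by 0.07 ± 0.064 without a call. The tRNA exportin gene Xpot rose most (0.65 ± 0.068; limma adjusted p = 3.69e-05), and did not pass in released against DMSO cells (0.09 ± 0.061). The cytoplasmic filament gene Ranbp2 (0.32 ± 0.058), the mRNA export factor gene Rae1 (0.34 ± 0.064), the membrane ring gene Pom121 (0.37 ± 0.067), Mcm3ap, the TREX-2 scaffold (0.27 ± 0.058), and the exportin relative Ranbp17 (0.26 ± 0.064) rose as well. Seh1l (-0.21 ± 0.065) and Ahctf1 (-0.20 ± 0.071), which belong to or anchor the Y complex, and the membrane ring gene Ndc1 (-0.24 ± 0.071) fell.

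In the mRNA export list the cap-binding protein gene Ncbp2 fell 1.92-fold (-0.94 ± 0.060; limma adjusted p = 1.54e-06) and the helicase gene Ddx39b fell by -0.53 ± 0.063. Thoc2 was higher in released than in DMSO cells (0.40 ± 0.091; limma adjusted p = 0.0255). In the envelope list the B-type lamin genes Lmnb2 (-0.96 ± 0.096) and Lmnb1 (-0.92 ± 0.063) fell most, and Syne2, which links the nucleus to the cytoskeleton, rose (0.31 ± 0.059). Lemd2, a gene of the inner nuclear membrane, was lower in released than in DMSO cells (-0.57 ± 0.061; limma adjusted p = 0.000532) and not called in MYCi (-0.08 ± 0.068). Lmna, the A-type lamin gene, differed by -0.21 ± 0.10 without a call.

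**Figure D5:**
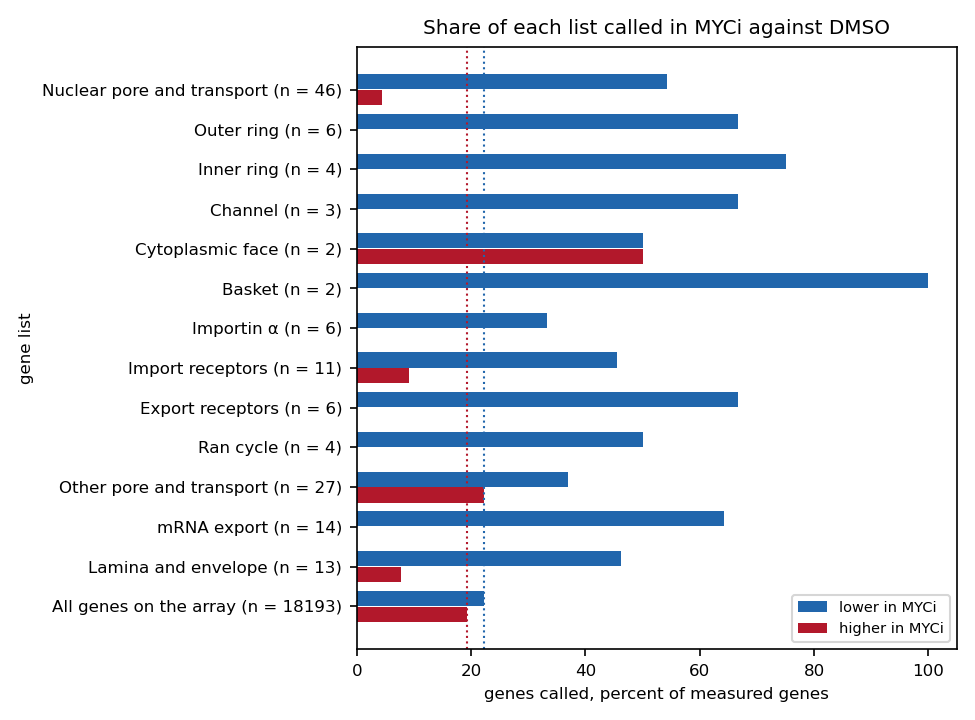
Bars give the percentage of measured genes of each list called lower (blue) or higher (red) in MYCi against DMSO, with dotted lines at the shares of all 18193 genes (22.3% lower, 19.2% higher). The 46 genes reach 54.3% lower and 4.35% higher, the further pore and transport genes 37% and 22.2%, and the bars of roles with 2 to 6 genes rest on few genes.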

How the data were processed

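RNA of 8 ESC samples was measured on 8 Affymetrix GeneChip arrays. The deposited log2 values, 1 per probe set and array, were made by the authors with RMA, and oligo 1.32.0 and limma 3.2.15 are named, per the submitters' processing notes; the log2 scale was read from the values (1.69 to 13.76). RMA equalises the arrays' distributions, so values are relative within an array. Precision is limited by the small number of arrays.

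Of 45101 probe sets, 34945 had 1 gene symbol in the platform annotation, 932 several, 9160 none here, and 64 were controls. Per gene the probe set with the highest mean was kept, without a filter on level, which left 18193 genes. All gene numbers of the 46 genes were found in RefSeq (GRCm38.p6) and 0 symbols changed.

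All 8 arrays were fitted in R 4.3.3 with limma 3.58.1 (lmFit, eBayes; 5 residual and 4.55 prior degrees of freedom), with 1 mean per group. P-values were two-sided, adjusted by Benjamini-Hochberg over all genes of a comparison, with a threshold of 0.05. The fit was tested on simulated data. Per-array values are given for, per comparison, the 10 called genes with the largest fall, the 8 with the largest rise, the 8 called genes of smallest p between released and DMSO arrays, and Ran, Kpnb1, Xpo1, Cse1l, Kpna2 and Rcc1; other values were chosen after they were seen. The 46 genes and the lists were chosen with earlier results of these data known. Other settings tried were averaging a gene's probe sets or testing each, dropping genes below the 30th percentile of level, centring arrays on their median, a second quantile normalization, array weights, a trended variance, only the groups compared, stricter thresholds, a replicate block and leaving out each array. Python 3.11.15, pandas 2.3.3 and matplotlib 3.10.9 served for sequences and figures.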

Additional observations from a re-analysis of the deposited data

How the results depend on the processing

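The median change of the 46 genes in MYCi against DMSO stayed negative under all 18 alternatives. Some of these cannot change it: stricter thresholds, a variance trend, only the groups compared, and leaving out a released array. The count of genes called lower in MYCi against DMSO (25) ran from 21 to 29, except that only 6 also changed at least 1.5-fold, and the median lay between -0.28 and -0.22. The count called higher in released against MYCi arrays (29) ran from 21 to 31, and was 9 with at least 1.5-fold change. Small counts moved. Genes called higher in MYCi against DMSO (2) were 4 without genes below the 30th percentile of level, 4 with repeated quantile normalization, 5 with a variance trend and robust fitting, 1 at an adjusted p under 0.01 and 0 with at least 1.5-fold change. Genes called higher in released against DMSO arrays (3) were 0 with the mean of all probe sets, with median centring, at an adjusted p under 0.01, with at least 1.5-fold change and with the replicate block, 1 with only the arrays of the 2 groups compared, and 7 with a variance trend. The 1 gene called lower there became 2 with a variance trend and 0 under both stricter thresholds. Genes called lower in released against MYCi arrays (4) were 2 with the mean of all probe sets and 0 with at least 1.5-fold change. Leaving out 1 array each gave 1 to 3 genes called higher and 22 to 26 lower in MYCi against DMSO, 0 to 1 higher and 0 to 1 lower in released against DMSO, and 22 to 29 higher and 3 to 4 lower in released against MYCi. With all probe sets tested, 20 of 73 other probe sets, in 13 genes, had a change of opposite sign to the kept one in MYCi against DMSO. Among genes described by array, called changes had the other sign in MYCi against DMSO at probe sets of Xpo4 (0.0618 and 0.0172), Xpo7 (0.1216, 0.3254 and 0.3255) and Nup155 (0.0089). In released against MYCi this held for Nup210 (0.0496), Xpo7 (-0.1946, -0.1943 and -0.2824) and Nup155 (-0.0086). Those of Xpo4, Xpo7, Nup155 and Nup210 had values of at most 4.84, but others were brighter, such as probe sets of Ipo7 (0.24, mean level 6.02), Nup153 (0.22, 5.56), Kpna1 (-0.06, 7.81) and Ran (0.06, 8.95), and the cause was not tested.

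Deviations of arrays from their group mean had correlations from -0.0562 to 0.0141 over the 7 pairs of the same replicate number. Over the 14 pairs of different numbers they ran from -0.0598 to 0.0687. The deviations of the 2 MYCi arrays mirror each other (-0.0325 and 0.0325 with DMSO replicate 1), so the pairs are not independent. Whether the numbers pair the samples therefore cannot be decided from these correlations. With the replicate block, 24 genes were called lower and 2 higher in MYCi against DMSO, 0 higher and 1 lower in released against DMSO, and 24 higher and 4 lower in released against MYCi. Fold changes of dim probe sets are compressed, so that Kpna7 and Nup210l are limited by signal over background.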
